A study of Mus musculus with 4 samples.

Results

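The genes of the parathyroid hormone-related protein (PTHrP), calcium sensing and RANKL axis were described in MSCs from the long bones of control and leukemia-bearing mice. The 7 genes were taken by their symbols, *Pthlh*, *Pth1r*, *Casr*, *Tnfrsf11b*, *Tnfsf11*, *Enpp1* and *Vdr*, from the 17457 genes listed, and all 7 were found. They had been picked because earlier results of these same libraries, the difference between L-MSCs and control MSCs among them, were known. Their differences between the groups are therefore given as a description, with no p-value. The study compared 2 samples of control MSCs with 2 samples of leukemia-associated MSCs (L-MSCs), and for every sample MSCs of 4 to 7 female C57BL/6J mice, 7 to 9 weeks old at injection, were pooled. The leukemia mice received 1000 cells of the BCR-ABL1+ pre-B acute lymphoblastic leukemia line PER-M60 by tail vein, which carries an MSCV-BCR-ABL1-IRES-mCherry retrovirus, and the control mice received PBS. Leukemic mice were taken at endpoint and the controls at the matching time, so that cells of 1 leukemia line stand for the disease. The marrow was flushed out and discarded before MSCs were sorted from the digested bone as CD45-, TER119-, CD31-, Sca-1+ and PDGFRα+ cells.

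The values are FPKM, numbers of fragments scaled to the length of the transcript and the size of the library, and their sum per library lay between 559601 and 588926. Between 13623 and 14704 genes were above 0 in a library. FPKM carry no read numbers, so that no counting interval was computed. The FPKM of *Ly6a*, the gene of Sca-1, was 1056 and 1711 in control MSCs and 1702 and 1985 in L-MSCs, and that of *Pdgfra* was 66.8 and 72.7 against 87.1 and 92.95. *Ptprc*, encoding CD45, was at most 0.020, and *Pecam1*, encoding CD31, was below 1 in all 4 libraries.

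PTHrP is a secreted relative of parathyroid hormone. Both act through the receptor PTH1R, which couples to Gs and raises cAMP in cells of the osteoblast and chondrocyte lineages. In bone, PTH1R signaling induces RANKL, the membrane and secreted cytokine that drives osteoclast precursors to form osteoclasts, and lowers osteoprotegerin, the soluble decoy receptor that binds RANKL and holds resorption back. The calcium-sensing receptor lowers parathyroid hormone secretion in the parathyroid gland when calcium is high, the vitamin D receptor is a nuclear receptor that also induces RANKL in stromal cells, and ENPP1 makes extracellular pyrophosphate, which inhibits mineralization.

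The stretches around the start sites of 4 of these genes are shown, because *Pthlh*, *Casr* and *Enpp1* were lower in both L-MSC libraries and *Vdr* was higher. They come from RefSeq (GRCm38.p6), run from 250 bases before the start to 50 after it, and lie on the minus strand of the assembly at chr6:147263964-147264263, chr16:36562085-36562384, chr10:24712110-24712409 and chr15:97908247-97908546, in the order given here. The table held 6 of the 7 genes, and *Tnfrsf11b* was not among them. Capitals mark matches to 9 motifs on either strand.
*Pthlh*: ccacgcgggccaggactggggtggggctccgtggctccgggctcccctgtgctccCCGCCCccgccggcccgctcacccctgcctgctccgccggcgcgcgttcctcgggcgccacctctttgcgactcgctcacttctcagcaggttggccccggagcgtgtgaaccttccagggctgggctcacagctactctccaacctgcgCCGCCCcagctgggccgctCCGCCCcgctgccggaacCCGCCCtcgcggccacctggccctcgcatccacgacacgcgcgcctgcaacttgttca
*Casr*: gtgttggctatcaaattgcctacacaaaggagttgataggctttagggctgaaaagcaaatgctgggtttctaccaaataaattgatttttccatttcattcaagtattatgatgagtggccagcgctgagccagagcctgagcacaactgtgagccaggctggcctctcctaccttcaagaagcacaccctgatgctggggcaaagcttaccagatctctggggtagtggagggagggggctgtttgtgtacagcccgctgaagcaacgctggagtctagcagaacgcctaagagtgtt
*Enpp1*: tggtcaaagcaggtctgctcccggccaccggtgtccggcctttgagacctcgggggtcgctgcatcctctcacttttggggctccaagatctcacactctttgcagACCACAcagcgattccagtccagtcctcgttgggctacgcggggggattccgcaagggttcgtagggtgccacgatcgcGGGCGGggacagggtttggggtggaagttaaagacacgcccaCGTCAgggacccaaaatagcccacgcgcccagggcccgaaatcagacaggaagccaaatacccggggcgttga
*Vdr*: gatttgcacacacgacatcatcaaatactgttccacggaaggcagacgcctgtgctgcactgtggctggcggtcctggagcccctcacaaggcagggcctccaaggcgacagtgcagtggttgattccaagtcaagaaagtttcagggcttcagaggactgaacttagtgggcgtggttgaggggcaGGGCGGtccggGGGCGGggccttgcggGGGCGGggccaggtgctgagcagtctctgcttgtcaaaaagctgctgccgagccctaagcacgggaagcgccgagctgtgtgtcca

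The motifs were the GC box GGGCGG, the TATA box TATAAA, the cAMP response element TGACGTCA and its core TGACG, which lies within it, the AP-1 site TGAGTCA, the RUNX site TGTGGT, the nuclear receptor core AGGTCA, the glucocorticoid receptor core AGAACA and the NF-κB site. The *Pthlh* stretch held 4 GC boxes, that of *Vdr* 3 and that of *Enpp1* 1, and the GC box is found in 35.7% of the 32851 stretches of the same length in the table. *Enpp1* also held 1 core of the cAMP response element, found in 20.8% of all stretches, and 1 RUNX site, found in 16.8%. *Casr* held none of the 9 motifs, and its stretch had a GC content of 49.7% and 4 CpG, against 74.0% and 33 for *Pthlh* and a median of 52.7% and 7 over all stretches. *Tnfsf11*, not shown, had the only TATA box among the 6 genes, a motif of 13.6% of all stretches. The values are given per gene, so that they do not tell which start site was in use, and *Pth1r* has 3 in the table. A match is a run of letters and not a measured binding site.

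The ligand was lower in L-MSCs while the libraries overlapped for its receptor. *Pthlh*, encoding PTHrP (gene ID 19227), lies on chromosome 6 of GRCm38.p6 from 147252109 to 147264013. Its FPKM was 108.5 and 105.9 in control MSCs and 22.3 and 25.7 in L-MSCs. The groups were far apart, since the lower control value was 4.13 times the higher L-MSC value, while the replicates of a group differed by factors of 1.02 and 1.15. The control mean of 107 ± 1.86 (SD, n = 2) stood against 24.0 ± 2.35 (SD, n = 2), a 4.47-fold lower level in L-MSCs. On the scale of log2(FPKM + 1), after median-of-ratios scaling of the libraries, the log2 fold change of L-MSCs over control MSCs was -2.22 with a standard error of 0.21. The rank of *Pthlh* was 29 from the lowest of 11056 genes. All standard errors come from a limma fit, which shrinks the variance of a gene toward a trend over all genes fitted. Here and throughout, fewer cells of a type and less RNA per cell cannot be told apart, because each library is a mixture of many sorted cells.

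*Pth1r*, encoding the shared receptor of PTHrP and parathyroid hormone (gene ID 19228), lies on chromosome 9 from 110722085 to 110747145. Its FPKM was 11.5 and 7.26 in control MSCs and 10.4 and 9.42 in L-MSCs. The libraries of the groups overlapped, with both L-MSC values inside the range of the controls, and the mean was 9.39 ± 3.01 (SD, n = 2) against 9.93 ± 0.714 (SD, n = 2). The log2 fold change was 0.01 with a standard error of 0.30. It was -0.32 without control replicate 2 and 0.32 without control replicate 1. The annotation places *Gm35775* over part of *Pth1r*, and reads of the shared stretch cannot be assigned with certainty. Within a library, the FPKM of *Pthlh* was 9.42 and 14.6 times that of *Pth1r* in control MSCs and 2.14 and 2.73 times in L-MSCs, a ratio that is per length of transcript and does not depend on the scaling of the libraries.

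The receptors for calcium and vitamin D were low in abundance and differed in opposite directions. *Casr*, encoding the calcium-sensing receptor (gene ID 12374), lies on chromosome 16 from 36490585 to 36562141. Its FPKM was 5.34 and 3.33 in control MSCs and 0.30 and 0.87 in L-MSCs. Both L-MSC values were below both control values, and the ratio of a control to an L-MSC library went from 3.83 to 17.8 over the 4 pairs. The mean was 4.34 ± 1.42 (SD, n = 2) against 0.585 ± 0.403 (SD, n = 2), a 7.41-fold lower level, and the log2 fold change was -1.81 with a standard error of 0.37. On this scale a low gene is understated, and with a pseudocount of 0.1 in place of 1 it was -2.89. *Casr* reached an FPKM of 1 in the controls alone, so that it entered the fit through the group in which it was high.

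*Vdr*, encoding the vitamin D receptor (gene ID 22337), lies on chromosome 15 from 97854427 to 97908296. Its FPKM was 1.31 and 0.060 in control MSCs and 4.60 and 2.35 in L-MSCs. Both L-MSC values were above both control values, but the control replicates themselves differed by a factor of 21.8, more than the 5.07-fold difference between the means. The mean was 0.685 ± 0.884 (SD, n = 2) against 3.48 ± 1.59 (SD, n = 2). The log2 fold change was 1.41 with a standard error of 0.46, and it was 0.82 without control replicate 2, 2.00 without control replicate 1 and 2.75 with a pseudocount of 0.1. *Gm33690* and *Gm52171* overlap *Vdr* in the annotation, so that its reads are uncertain in the same way. *Rxra*, encoding the retinoid X receptor with which the vitamin D receptor binds DNA, had an FPKM of 7.62 and 9.43 against 7.05 and 7.34 (log2 fold change of -0.30, adjusted p = 0.591 from limma). *Vdr* stayed below *Rxra* in all 4 libraries, at 0.172 and 0.00636 of its FPKM in control MSCs and 0.653 and 0.320 in L-MSCs.

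The decoy receptor for RANKL was abundant and lower in L-MSCs, and RANKL itself was hardly detected. *Tnfrsf11b*, encoding osteoprotegerin (gene ID 18383), lies on chromosome 15 from 54250619 to 54278484. Its FPKM was 101 and 83.0 in control MSCs and 46.6 and 49.97 in L-MSCs. The groups did not overlap, and the lower control value was 1.66 times the higher L-MSC value. The mean was 92.2 ± 13.1 (SD, n = 2) against 48.3 ± 2.36 (SD, n = 2), and the log2 fold change was -1.01 with a standard error of 0.21. The value lies just past the fold threshold of 1, and it was -0.87 without control replicate 1 and -1.19 without control replicate 2.

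*Tnfsf11*, encoding RANKL (gene ID 21943), lies on chromosome 14 from 78277446 to 78308043. Its FPKM was 0.70 and 0.030 in control MSCs and 0.14 and 0.87 in L-MSCs, below 1 in all 4 libraries, so that it was not among the genes tested. The libraries overlapped, and the replicates differed by factors of 23.3 and 6.21 within the groups. The mean was 0.365 ± 0.474 (SD, n = 2) against 0.505 ± 0.516 (SD, n = 2). Without the filter its log2 fold change was 0.11 with a standard error of 0.36. Per 1000 units of *Tnfrsf11b* there were 6.90 and 0.362 units of *Tnfsf11* in control MSCs and 3.002 and 17.4 in L-MSCs. The ranges of this ratio overlapped, and the mean of the L-MSC libraries exceeded that of the controls by 6.58 with all libraries and was below it by -0.63 without L-MSC replicate 2. A difference in the ratio of RANKL to osteoprotegerin transcripts was not detectable in these libraries.

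*Tnfrsf11a*, encoding RANK, the receptor of RANKL on osteoclast precursors, was listed at 0 in all 4 libraries. *Tnfsf10*, encoding TRAIL, which osteoprotegerin also binds, was at most 0.18. *Lgr4*, encoding another receptor reported for RANKL, had an FPKM of 4.82 and 5.09 in control MSCs and 6.72 and 7.53 in L-MSCs (log2 fold change of 0.36, adjusted p = 0.524 from limma). *Csf1*, encoding M-CSF, the other cytokine that osteoclast precursors need, had 72.3 and 73.6 against 94.5 and 80.4 (log2 fold change of 0.15, adjusted p = 0.734 from limma). Per length of transcript, the FPKM of *Tnfrsf11b* was 57.4 to 2766 times that of *Tnfsf11* in the 4 libraries.

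*Enpp1*, encoding the enzyme that generates pyrophosphate from extracellular nucleotides (gene ID 18605), lies on chromosome 10 from 24637914 to 24712159. Its FPKM was 57.6 and 45.6 in control MSCs and 21.1 and 30.8 in L-MSCs. The groups did not overlap, with the lower control value 1.48 times the higher L-MSC value. The mean was 51.6 ± 8.45 (SD, n = 2) against 25.9 ± 6.89 (SD, n = 2), and the log2 fold change was -1.08 with a standard error of 0.25. It was -0.84 without L-MSC replicate 1 and -1.32 without L-MSC replicate 2. *Alpl*, encoding the alkaline phosphatase that hydrolyzes pyrophosphate, had an FPKM of 90.3 and 73.5 against 50.4 and 70.9 and did not pass the test (log2 fold change of -0.54, adjusted p = 0.221 from limma). The FPKM of *Enpp1* was 0.638 and 0.621 of that of *Alpl* in control MSCs and 0.418 and 0.435 in L-MSCs. This ratio did not overlap between the groups. *Enpp1* was chosen with this contrast known, so nothing is read from that.

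**Figure D1:**
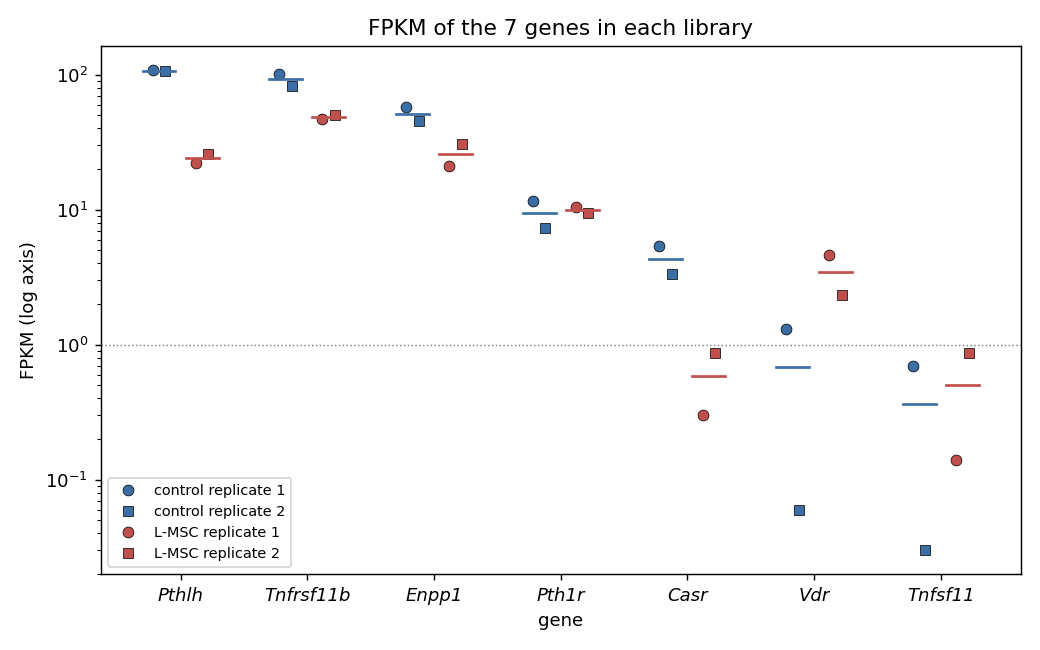
FPKM of the 7 genes in each library on a log axis, with control MSCs in blue, L-MSCs in red, circles for replicate 1, squares for replicate 2, short lines for group means and a dotted line at an FPKM of 1. *Pthlh* sat at 108.5 and 105.9 in the controls and at 22.3 and 25.7 in L-MSCs, whereas all 4 values of *Tnfsf11* were below 1 and overlapped between the groups.

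Of the 7 genes, 6 reached an FPKM of 1 in 2 or more libraries and entered the limma fit over 11056 genes. Genes were called where the Benjamini-Hochberg adjusted p did not exceed 0.05 and the log2 fold change was 1 or more in size. By this rule 4 of the 6 were lower, *Pthlh*, *Casr*, *Tnfrsf11b* and *Enpp1*, where 2.65% of all genes tested were called lower and 2.43% higher. The scaled values of the groups were also apart for these 4 and, in the other direction, for *Vdr*, where 27.2% of all genes tested had no overlap with L-MSCs lower and 24.8% with L-MSCs higher. Since the genes were chosen on this contrast, nothing is read from these counts. The count called lower was 1 without control replicate 1 (*Pthlh*), 3 without control replicate 2, 2 without L-MSC replicate 1 (*Pthlh* and *Casr*) and 4 without L-MSC replicate 2. Without either control library *Casr* did not reach the filter, and with no filter on low values 0 of the 7 were called. *Vdr* was called higher without control replicate 1 and without L-MSC replicate 2.

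**Figure D2:**
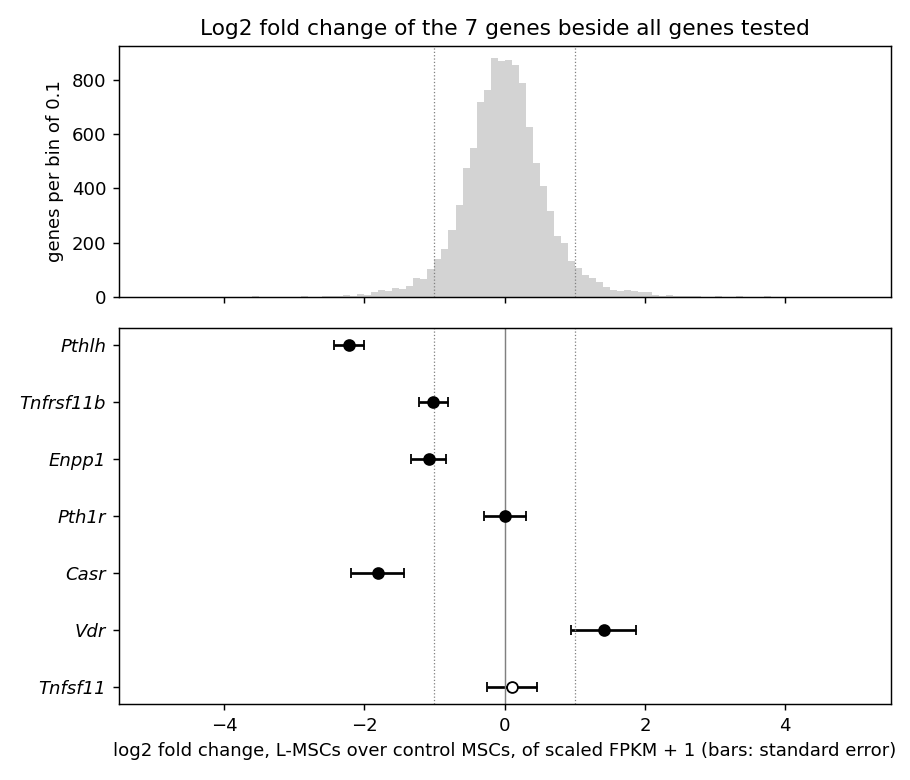
Log2 fold changes between control MSCs and L-MSCs, positive where L-MSCs were higher, on scaled FPKM + 1, with the number of genes tested per bin above and the 7 genes with their standard errors below. The open circle is *Tnfsf11*, from the fit without the filter, and dotted lines mark the fold threshold. *Pthlh* at -2.22 lay in the lower tail of the 11056 genes and *Pth1r* at 0.01 at their center.

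The order of the levels differed between the groups. In control MSCs it was *Pthlh*, *Tnfrsf11b*, *Enpp1*, *Pth1r*, *Casr*, *Vdr* and *Tnfsf11*, from an FPKM of 107 down to 0.365. The libraries of neighbors in this order overlapped for *Vdr* and *Tnfsf11* alone. In L-MSCs the order was *Tnfrsf11b*, *Enpp1*, *Pthlh*, *Pth1r*, *Vdr*, *Casr* and *Tnfsf11*, from 48.3 down to 0.505, and neighbors overlapped for *Enpp1* and *Pthlh* and for *Casr* and *Tnfsf11*. Over all 4 libraries *Pthlh* and *Tnfrsf11b* exceeded 93.1% and 93.5% of all listed genes by their mean FPKM, and *Tnfsf11* exceeded 30.8%.

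The genes whose pattern over the 4 libraries was nearest to each of the 6 genes tested were found by the Euclidean distance of log2 values centered on their mean. Those nearest to *Pthlh* were *Lrrc15*, encoding a membrane protein of activated fibroblasts (distance of 0.0406), with an FPKM of 19.3 and 19.5 in control MSCs and 3.31 and 3.98 in L-MSCs, and *Spink2*, encoding a protease inhibitor (0.0865). *Tafa5* (0.181) and *Fxyd5* (0.223) were nearest to *Casr*, *Ssx2ip* (0.0370) and *Sec61b* (0.0575) to *Tnfrsf11b*, and *Gnai2* (0.0846) and *C1qtnf2* (0.0902) to *Enpp1*. For *Vdr* they were *Wfdc12* (0.0514) and *Nfkbiz* (0.0749), and for *Pth1r* *Tor3a* (0.0438) and *Naxd* (0.0459). The measure uses 4 libraries in 2 groups, and the distances are a description.

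No direct partner of the 7 genes was called. Of 21 written, 17 were listed and 10 tested, of which limma called 0, and 2 had an unadjusted p of at most 0.05. In the same fit 2342 of all 11056 genes tested had an unadjusted p of at most 0.05. This list and those below were written with earlier results of these data known, so nothing is read from their counts. *Ramp2*, encoding an accessory protein of PTH1R, had an FPKM of 86.3 and 121.6 in control MSCs and 159.6 and 154.4 in L-MSCs (log2 fold change of 0.51, adjusted p = 0.227 from limma). *Ank*, encoding the membrane protein that exports pyrophosphate, had 26.3 and 36.1 against 13.5 and 52.0, so that the L-MSC libraries lay on both sides of the controls (adjusted p = 0.770). *Nt5e*, encoding CD73, which releases adenosine from AMP, had 121.1 and 89.4 against 129 and 140.0, and the phosphate transporter *Slc20a1* 75.0 and 51.0 against 51.8 and 42.9 (adjusted p = 0.554 and 0.302 from limma). The log2 fold changes of *Rxrb*, a partner of nuclear receptors, and *Slc20a2*, a phosphate transporter, were 0.30 and 0.49 (adjusted p = 0.759 and 0.401). *Pth2r* and *Ihh* were listed at 0 throughout, and *Cyp24a1*, *Cyp27b1* and *Abcc6*, encoding the enzymes that inactivate and activate vitamin D and a transporter, were below 1. *Pth*, *Pth2* and *Gprc6a* were not analysed here.

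Of the cAMP cascade downstream of PTH1R *Crtc2* alone was called, and the median of genes known to respond to parathyroid hormone was above 0. The direction in which the hormone moves each gene was not considered, and whether PTH1R signaling differed was not tested. Of 38 tested genes of the cAMP cascade, 1 rose and 0 fell, 2.63% called beside 5.08% of all genes tested. An unadjusted p of at most 0.05 was found for 9 of the 38, beside 2342 of all 11056 genes tested. The median log2 fold change was 0.05, beside -0.01 over all genes tested. With no filter on low values, none of the calls in this and the other lists was made. The gene that rose was *Crtc2*, encoding a coactivator of CREB, from 7.20 and 5.77 to 16.9 and 16.2 (log2 fold change of 1.14 ± 0.27 SE, adjusted p = 0.0369 from limma). Its call ended without control replicate 2 (0.98), without L-MSC replicate 1 (1.08) and without the mean-variance trend (adjusted p = 0.069). *Gnas*, encoding the Gs alpha subunit that couples PTH1R to adenylate cyclase, had 336.5 and 350.3 against 249.7 and 245.0 (log2 fold change of -0.57, adjusted p = 0.131), and *Prkar1a*, a regulatory subunit of protein kinase A, had a log2 fold change of -0.32 (adjusted p = 0.410).

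Of 25 tested genes that parathyroid hormone is known to regulate in osteoblasts, 3 rose and 1 fell. This was a share of 16.0% called beside 5.08% of all genes tested, and the median log2 fold change was 0.92. The list was written with earlier results of these data known, so nothing is read from this share. *Nfil3*, encoding a transcriptional repressor, went from 18.3 and 14.1 to 39.2 and 98.2 (log2 fold change of 1.79, adjusted p = 0.0227 from limma). *Fosb*, an AP-1 subunit, had a log2 fold change of 1.72 (adjusted p = 0.0369) and *Per1*, a clock repressor, of 1.22 (adjusted p = 0.0365). *Fgf18*, encoding a growth factor of bone and cartilage, fell from 5.89 and 5.58 to 2.06 and 1.62 (log2 fold change of -1.33, adjusted p = 0.0392). *Fos* and *Junb*, the most abundant of the list, missed the threshold, with log2 fold changes of 1.39 and 1.53 (adjusted p = 0.101 and 0.0835). Many genes of the list are immediate-early genes, and 22 of the 25 were higher in control replicate 1 than in control replicate 2 (median log2 difference of 0.95), and 21 of the 25 in L-MSC replicate 1 than in replicate 2 (0.63), where the medians over all genes tested were -0.01 and -0.02. The genes that rose numbered 12 without control replicate 1, 1 without control replicate 2, 1 without L-MSC replicate 1 and 12 without L-MSC replicate 2. The call of *Nfil3* ended without control replicate 2 (1.58), that of *Fosb* without control replicate 2 (1.11) and L-MSC replicate 1 (1.23), that of *Per1* without control replicate 1 (0.92) and L-MSC replicate 1 (1.18), and that of *Fgf18* without control replicate 1 (-1.29), control replicate 2 (-1.39) and L-MSC replicate 2 (-1.20). Without the trend 0 of the 25 rose, and *Fgf18* was not called without scaling (adjusted p = 0.0527) or with TPM (0.0561), nor *Fosb* with a pseudocount of 0.1 (0.0541).

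Of 12 tested genes of the hedgehog pathway, which induces PTHrP in cartilage, limma called 0. An unadjusted p of at most 0.05 was found for 4 of the 12, beside 2342 of all 11056 genes tested. *Gas1* and *Boc*, encoding hedgehog co-receptors, had log2 fold changes of 0.62 and -0.24 (adjusted p = 0.164 and 0.579). The largest changes of the list were those of *Ptch1* at 1.00, *Gli1* at 0.97 and *Hhip* at -0.97 (adjusted p = 0.142, 0.106 and 0.0996 from limma). Of the 12 log2 fold changes, 7 were above 0 and 5 below.

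Genes of calcium sensing and transport went both ways. Of 31 tested, 1 rose and 2 fell, 9.68% called beside 5.08% of all genes tested, and the median was -0.15 on the log2 scale. From this share too nothing is read, since the list was written with earlier results known. *Trpv4*, encoding a calcium channel that responds to mechanical and osmotic stimuli, fell from an FPKM of 17.9 and 11.5 to 5.16 and 6.81 (log2 fold change of -1.24 ± 0.30 SE, adjusted p = 0.0436 from limma). *Gnai2*, encoding an inhibitory G protein subunit of the kind to which the calcium-sensing receptor couples, fell from 48.7 and 40.3 to 19.3 and 27.0 (log2 fold change of -1.03, adjusted p = 0.0395). *Stc2*, encoding the glycoprotein stanniocalcin 2, rose from 0.50 and 0.17 to 2.09 and 4.80 (log2 fold change of 1.62, adjusted p = 0.0453), and it entered the fit through the L-MSC libraries alone. *Ap2s1*, encoding an adaptor subunit that takes part in endocytosis of the receptor, had a log2 fold change of -0.54 (adjusted p = 0.178), and *Flna*, encoding filamin A, which binds the receptor, of 0.08 (adjusted p = 0.904). Leaving out the libraries in the order used above, 0, 1, 0 and 2 genes fell and 1, 1, 0 and 1 rose. The call of *Trpv4* ended without control replicate 1 (-0.94) and L-MSC replicate 1 (-1.09), that of *Gnai2* without control replicate 1 (-0.89), control replicate 2 (-1.19) and L-MSC replicate 1 (-0.82), and that of *Stc2* without control replicate 2 (1.43), while without either L-MSC library *Stc2* was not tested. Both *Trpv4* and *Gnai2* also lost their calls without scaling, with TPM, with a pseudocount of 0.1 and without the trend (adjusted p from 0.0511 to 0.106), and *Stc2* under the last 3 of these (0.0589 to 0.0723).

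Of 20 tested genes of the vitamin D pathway limma called 0, and the median log2 fold change was -0.02. An unadjusted p of at most 0.05 was found for 5 of the 20, beside 2342 of all 11056 genes tested. *Spp1*, encoding osteopontin and a known target of the vitamin D receptor, was the most abundant, with an FPKM of 3785 and 2474 in control MSCs and 3820 and 3868 in L-MSCs (log2 fold change of 0.23, adjusted p = 0.705 from limma). *Cdkn1a*, encoding the cell cycle inhibitor p21, had a log2 fold change of -0.42 (adjusted p = 0.368). The largest changes in each direction, neither called, were those of *Bglap* at -2.18 and *S100g* at 1.41 (adjusted p = 0.0549 and 0.0934 from limma). With a minimum FPKM of 5, 1 gene of this list was called lower. Among 23 tested genes of pyrophosphate and phosphate handling, 0 rose and 1 fell, 4.35% called beside 5.08% of all genes tested. Of the 23, 5 had an unadjusted p of at most 0.05. *Ppa1*, encoding the cytosolic pyrophosphatase, fell from 68.7 and 77.6 to 25.7 and 26.5 (log2 fold change of -1.55 ± 0.21 SE, adjusted p = 0.00441), and this call held with each library left out in turn, when the genes of the list that fell numbered 1 to 3 and those that rose 0 to 1. *Mgp*, encoding an inhibitor of calcification, had 3798 and 4073 against 6168 and 6226 (log2 fold change of 0.55, adjusted p = 0.251).

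Among factors by which stromal cells promote or hold back osteoclasts, 2 of 29 rose and 3 fell. This was 17.2% called beside 5.08% of all genes tested, and the median was 0.06 on the log2 scale. Nothing is read from this share either, since the list was written with earlier results known. *Ccl5*, a chemokine, rose from an FPKM of 1.29 and 0.10 to 4.68 and 6.73 (log2 fold change of 2.00, adjusted p = 0.0248 from limma), and *Cxcl12*, the niche chemokine that holds hematopoietic cells in the marrow, from 261.1 and 258.1 to 889 and 547 (1.32, adjusted p = 0.0199). *Cthrc1*, encoding a secreted protein of matrix-forming cells, fell from 79.1 and 54.1 to 5.12 and 27.8 (-2.42, adjusted p = 0.0349), *Tsku*, encoding a secreted leucine-rich protein, had -1.30 (adjusted p = 0.0347), and *Il33*, a cytokine, had -1.11 (adjusted p = 0.0450) and is named after its value was seen. *Cxcl1* and *Lgals3*, the most abundant of those not called, had log2 fold changes of 1.91 and 0.02 (adjusted p = 0.0845 and 0.968). *Il6*, also named after its value was seen, went from 10.8 and 2.55 to 46.3 and 16.05. Its log2 fold change of 2.04 was not called (adjusted p = 0.0735 from limma). The paper, by its own test, reported *Il6* as significantly increased. Leaving out the libraries in the same order, 7, 0, 1 and 8 genes rose and 2, 1, 1 and 4 fell. The call of *Cxcl12* ended without control replicate 2 (1.28) and without L-MSC replicate 1 (0.94), that of *Ccl5* without control replicate 2 (1.45), that of *Tsku* without control replicate 1 (-1.33), control replicate 2 (-1.29) and L-MSC replicate 1 (-1.16), and that of *Il33* without control replicate 2 (-0.75) and L-MSC replicate 1 (-1.16). *Cthrc1* went from -3.51 without L-MSC replicate 2 to -1.33 without L-MSC replicate 1. None of the 3 that fell was called without scaling or with TPM, where *Cthrc1* had adjusted p = 0.0521 and 0.0675, *Tsku* 0.0511 and 0.0544 and *Il33* 0.0701 and 0.0791. *Cthrc1* and *Il33* also lost their calls with a pseudocount of 0.1 (0.0552 and 0.0594) and without the trend (0.0959 and 0.115), as did *Ccl5* with that pseudocount (0.0667) and *Cxcl12* without the trend (0.0749).

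**Figure D3:**
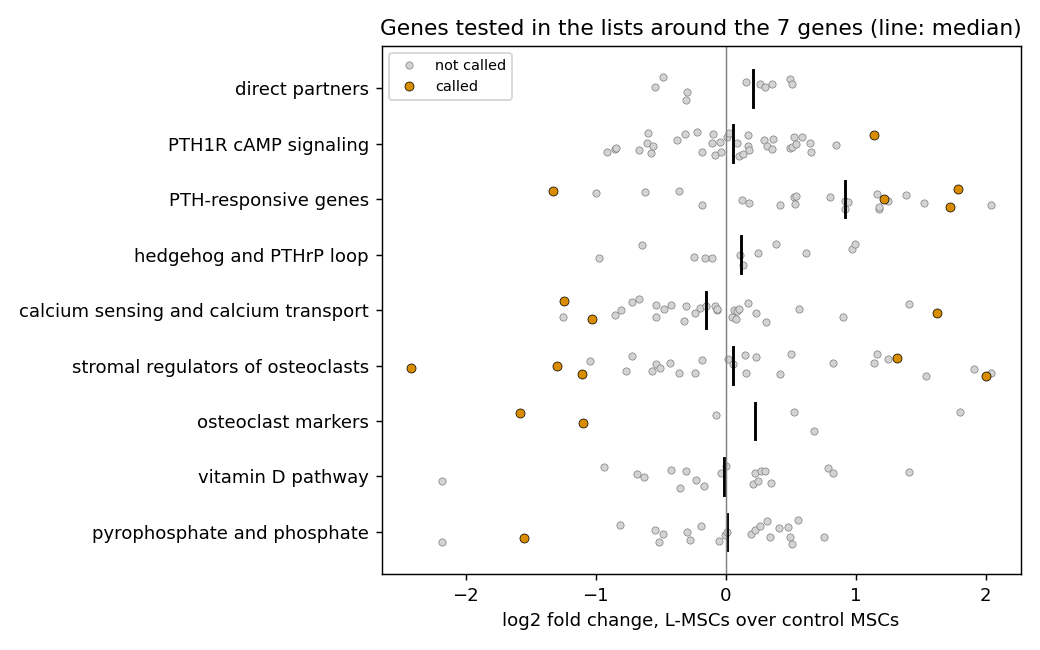
Log2 fold changes of the tested genes in 9 lists around the 7 genes, 1 point per gene, with called genes in orange and a line at each median. The medians lay between -0.15 and 0.23 except for the genes known to respond to parathyroid hormone, at 0.92.

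Markers of other cells were described beside these genes, and they differed in both directions. Osteoclasts, which the CD45 sort should remove, were looked for with 12 markers, of which 11 were listed. Their summed FPKM was 669 to 850 in control MSCs and 859 to 1155 in L-MSCs, most of it from *Ctsk*, at 632 and 509 against 1029 and 749 (log2 fold change of 0.53, adjusted p = 0.257 from limma), which periosteal mesenchymal cells also express, and from *Acp5*. *Atp6v0d2*, encoding a proton pump subunit, had a log2 fold change of 0.68 (adjusted p = 0.224). *Csf1r*, *Ocstamp*, *Dcstamp* and *Oscar* were below 1 in all libraries and *Tnfrsf11a* was listed at 0. *Acp5* and *Itgb3* fell in L-MSCs, with log2 fold changes of -1.10 and -1.58 (adjusted p = 0.0245 and 0.0177 from limma), and 0 of the 6 tested rose. *Mmp9*, of the same list, had an FPKM of 1 and 0 in control MSCs and 6.09 and 2.72 in L-MSCs. It narrowly missed the threshold (log2 fold change of 1.81, adjusted p = 0.0507 from limma). Of the 6 log2 fold changes, 3 were above 0 and 3 below. The call of *Itgb3* ended without control replicate 2 (-1.59) and that of *Acp5* without control replicate 1 (-0.86), without scaling (-0.99) and without the trend (adjusted p = 0.0916).

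Over all genes tested 2.65% were called lower and 2.43% higher, which stands beside the counts of the osteoclast markers and those that follow. Of 8 tested chondrocyte markers 2 fell, *Acan* and *Col11a1*, and 0 rose. Their summed FPKM was 8736 to 9646 in control MSCs and 6048 to 8577 in L-MSCs. *Comp*, of the same list, had a log2 fold change of -0.19 and was not called. Of 7 tested tendon and tendon sheath markers 3 fell, *Tnmd*, *Fmod* and *Tppp3*, and 0 rose, with sums of 7742 to 9345 against 5416 to 5763. Among those not called, *Mkx* had a log2 fold change of -0.06. *Prg4*, also not called, had an FPKM of 1912 and 1825 in control MSCs and 3760 and 2317 in L-MSCs. Of 7 tested osteoblast markers 1 fell, *Col1a1*, with sums of 8979 to 11600 against 6034 to 8021. Much of these sums was *Col1a1* itself, at 6571 and 5949 against 1617 and 3117. Of those not called, *Runx2* and *Spp1* had log2 fold changes of 0.23 each and *Ibsp* of -0.004. *Sp7*, *Alpl* and *Bglap*, also not called, had -0.51, -0.54 and -2.18. Of 5 tested markers of marrow stroma 2 rose, *Lepr* and *Cxcl12*, with sums of 299.8 to 308 against 662 to 984. *Dmp1* and *Phex*, markers of osteocytes, were below 1 in all libraries. All 4 tested erythroid markers fell, with sums of 149.8 to 239 against 6.26 to 10.1. Of the markers of the sorted cells *Thy1* fell and 0 of 7 tested rose, with sums of 1379 to 2056 against 2058 to 2384. Hematopoietic markers summed to 14.5 to 20.9 against 8.32 to 20.1, with 0 of 3 tested called, and endothelial markers to 3.84 to 4.40 against 2.79 to 5.02, with 0 of 1 called and *Cldn5* listed at 0. The part of these cell types in the differences of *Pthlh*, *Casr*, *Tnfrsf11b* and *Enpp1* was not tested.

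**Figure D4:**
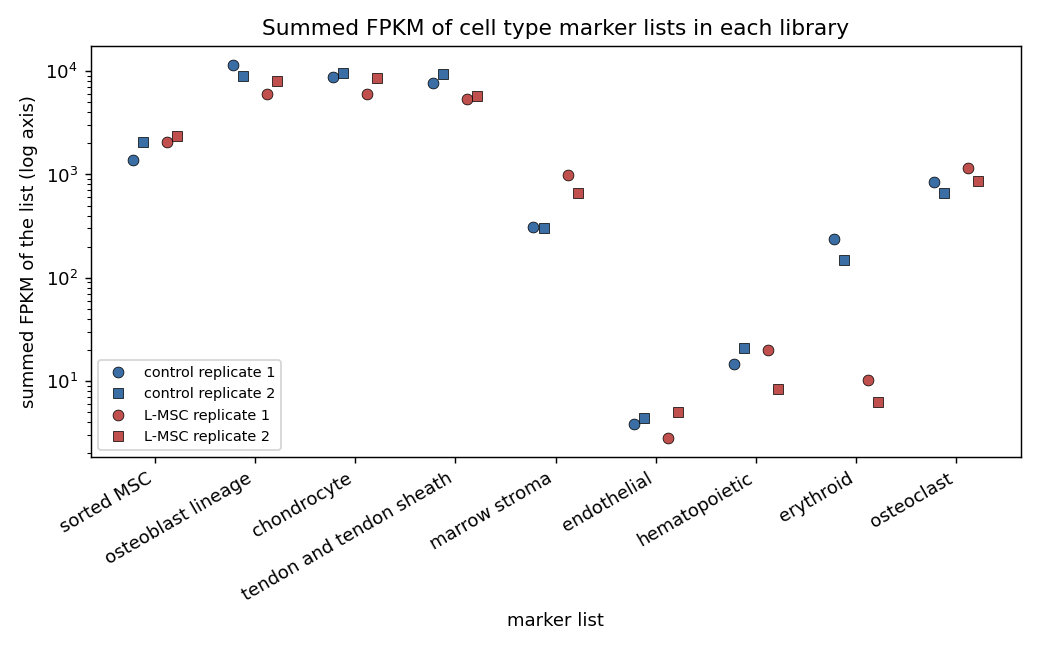
Summed FPKM of 9 marker lists in each library on a log axis, with control MSCs in blue, L-MSCs in red, circles for replicate 1 and squares for replicate 2. The tendon list was at 7742 and 9345 in control MSCs and at 5416 and 5763 in L-MSCs, and the marrow stroma list was higher in both L-MSC libraries, while the endothelial and hematopoietic lists stayed low.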

How the data were processed

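Total RNA of sorted MSCs was amplified with a SMART-Seq v4 kit and sequenced by a service company. The authors deposited 1 table of FPKM per gene for 2 control and 2 leukemia libraries, labelled as replicates, and the submitters' processing notes name HISAT2 2.0.4, Bowtie2 2.2.5, RSEM 1.2.8 and the build GRCm38.p6. The deposited FPKM are estimates relative to transcript length and library size, so that count tests could not be used. A column with the authors' own log2 fold changes (1 column) was not used.

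Libraries were brought to one scale by the median of ratios and FPKM were log2-transformed with a pseudocount of 1. Genes that reached an FPKM of 1 in 2 or more libraries were fitted with limma 3.58.1 in R 4.3.3, with a mean-variance trend, two-sided, Benjamini-Hochberg adjusted over all genes tested. A gene was called where the adjusted p did not exceed 0.05 and the log2 fold change was 1 or more in size. The script was tested on simulated data. With 2 libraries against 2, an exact two-sided permutation test cannot go below p = 0.333. Each library is a pool of mice. The p-values and standard errors rest on the spread between 2 pools per group, shrunk by limma toward a trend over all genes fitted.

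The 7 genes and the 9 lists around them, written from general knowledge, were chosen with earlier results of these data known. Named were the 7 genes, their direct partners, in each list up to 4 called genes with the largest log2 fold change and up to 2 genes not called with the highest FPKM, the 2 genes nearest to each of the 7 that was tested, and genes of the sort. *Il33*, *Il6*, *Mmp9*, *Bglap*, *S100g*, *Gli1*, *Ptch1* and *Hhip* were named beyond this rule, after their values were seen. Other genes of the cell type marker lists were also named outside the rule, with their values known. Alternatives were no scaling, TPM, other pseudocounts, no filter, a minimum FPKM of 5, no trend, a replicate block and leaving out each library.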

Additional observations from a re-analysis of the deposited data

How the results depend on the processing

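Without scaling, with TPM and without the trend, the 7 genes, chosen on this contrast, gave 2 lower calls each instead of 4, and the genes called lower over the whole table numbered 194, 182 and 128 instead of 293. Without the trend 148 genes were called higher instead of 269. Without the filter on low values limma called 0 genes in either direction, 0 of the 7 among them, with 2355 genes at an unadjusted p of at most 0.05, and all 16 calls of list genes ended. Of these 16, 7 ended without scaling, 7 with TPM, 7 with a pseudocount of 0.1 and 11 without the trend, and none turned its direction. The log2 fold change of *Pthlh* was -2.12 without scaling. That of *Casr* was -2.89 with a pseudocount of 0.1 and -2.25 with 0.5, and that of *Vdr* was 2.75 with 0.1. The causes were not tested.

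With 1 library left out, 192 to 436 genes were called higher and 196 to 546 lower, and of the 7 genes 1 to 4 were called lower and 0 to 1 higher. The log2 fold changes ranged from -2.29 to -2.15 for *Pthlh*, -2.11 to -1.54 for *Casr*, -1.19 to -0.87 for *Tnfrsf11b*, -1.32 to -0.84 for *Enpp1*, 0.82 to 2.00 for *Vdr*, -0.32 to 0.32 for *Pth1r* and -0.27 to 0.49 for *Tnfsf11*. The difference of the *Tnfsf11* to *Tnfrsf11b* ratio per 1000 ranged from -0.63 to 13.8. A replicate block, for which the numbers alone pair the libraries (r = 0.101 between the deviations of replicate 1 over 11056 genes), gave 509 genes higher and 438 lower, with 4 of the 7 genes lower and 1 higher (*Vdr*). With this block 10 of the 25 genes known to respond to parathyroid hormone were called higher instead of 3, 8 stromal regulators of osteoclasts instead of 2, 2 genes of calcium sensing instead of 1, and 1 osteoclast marker and 1 gene of the vitamin D pathway instead of 0. Called lower were 1 gene of the vitamin D pathway instead of 0 and 2 of pyrophosphate handling instead of 1, and all 16 earlier calls held. Levels below an FPKM of 1, as for *Tnfsf11*, limit what could be seen.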
